A study of Mus musculus with 32 samples.

Results

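The cell cycle and proliferation genes described here are 40 named genes, found by symbol among the 35275 genes of the deposited lung count table, and all 40 were present. They were divided by role into 14 genes of DNA replication, here called the G1/S genes, and 26 genes of mitosis, here called the G2/M genes. The 32 libraries were poly(A) RNA-seq of whole lung from C57B/6 mice, in 8 groups and 2 experiments. In experiment 1, with no surgery and 5 months of exposure, there were 3 male and 3 female libraries in room air, and 5 male and 5 female libraries in cigarette smoke. In experiment 2 all mice were female and all breathed smoke: 3 sham-operated and 3 ovariectomized libraries at 3 months, and 5 of each at 5 months. Experiment 2 had no air group, and the age of the mice is not given in the sources used here. Library titles ran in separate number series for air and for smoke in experiment 1, and for each group in experiment 2. The labels do not say what these series mean. Any difference between series cannot be told apart from smoke, surgery or time. The labels do not say that libraries came from separate animals, so the p-values measure the variation among libraries only, and part of it may be technical. Libraries held 13790052 to 24497332 counted reads, and every member had at least 5 reads in every library. Summed markers of alveolar type 2 cells, the surfactant-producing cells of the lung, were high in every group, at 31299 to 48327 CPM (reads of a gene scaled to a common library total).

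A dividing cell first licenses its replication origins with the ring-shaped Mcm2 to Mcm7 helicase, then copies its DNA in S phase, and then separates the copies in mitosis under the control of cyclin B, Cdk1 and the Aurora and Polo kinases. E2F transcription factors switch on the replication genes late in G1, and the later DREAM, B-Myb and FoxM1 complexes act on mitotic genes through short promoter elements called CHR, often near CCAAT boxes bound by NF-Y. Adult lung is known to renew slowly. In bulk tissue, fewer cells of a type and less RNA per cell cannot be told apart.

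The 250 bases before the RefSeq transcription start (GRCm38.p6) are printed for Mcm3 and Mcm6, helicase subunits called lower in smoke, Mcm3 in both sexes and Mcm6 in males alone, and for Top2a and Mki67, a pair of mitotic genes that varied together between libraries. All 4 genes are on the minus strand and the sequences read 5′ to 3′ in the direction of transcription. Capitals mark matches, on either strand, to the E2F words TTTGGCGC and TTTCGCGC and TTTCCCGC and TTTGCCGC, to the CHR word TTTGAA or its variant TTCGAA, or to the CCAAT box, and adjoining capitals can be overlapping matches.
Mcm3: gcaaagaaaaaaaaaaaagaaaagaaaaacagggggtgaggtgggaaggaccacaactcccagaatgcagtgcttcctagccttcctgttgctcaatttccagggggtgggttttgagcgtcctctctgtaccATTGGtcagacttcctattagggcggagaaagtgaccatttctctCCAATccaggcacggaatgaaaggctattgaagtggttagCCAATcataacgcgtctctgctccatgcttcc
Mcm6: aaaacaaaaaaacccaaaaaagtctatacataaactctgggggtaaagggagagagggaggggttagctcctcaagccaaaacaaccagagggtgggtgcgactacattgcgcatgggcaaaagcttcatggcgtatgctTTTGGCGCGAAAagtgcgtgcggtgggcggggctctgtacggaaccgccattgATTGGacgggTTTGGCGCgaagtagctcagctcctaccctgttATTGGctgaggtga
Top2a: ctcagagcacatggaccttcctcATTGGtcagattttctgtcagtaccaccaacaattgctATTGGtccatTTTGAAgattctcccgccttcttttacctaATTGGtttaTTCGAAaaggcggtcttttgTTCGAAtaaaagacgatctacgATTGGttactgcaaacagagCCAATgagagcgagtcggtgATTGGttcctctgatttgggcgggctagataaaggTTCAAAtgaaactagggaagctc
Mki67: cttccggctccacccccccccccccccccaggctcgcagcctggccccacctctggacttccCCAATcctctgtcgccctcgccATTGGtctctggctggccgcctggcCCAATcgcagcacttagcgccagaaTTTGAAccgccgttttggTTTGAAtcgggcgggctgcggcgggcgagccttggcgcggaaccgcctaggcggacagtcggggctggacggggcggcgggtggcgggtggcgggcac
The windows are chr1:20820313-20820562 for Mcm3, chr1:128359706-128359955 for Mcm6, chr11:99024190-99024439 for Top2a and chr7:135716380-135716629 for Mki67. The Mcm3 window held 3 CCAAT matches and no E2F or CHR word. The Mcm6 window held 3 E2F matches, at 110, 106 and 47 bases before the start, of which the first pair overlap, and 2 CCAAT matches. Top2a had 4 CHR and 6 CCAAT matches, and Mki67 had 2 CHR and 3 CCAAT matches.

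Of the 40 genes, 34 were matched to the RefSeq promoter table, all but Mcm4, Aurkb, Foxm1, Ccna2, Kif20a and Tpx2. A CCAAT box stood in 28 of the 34 promoters (82.4%), against 34.5% of all 27025 promoters of the same length. An E2F word stood in 5 of the 34 (14.7%), against 1.91% of all promoters, and 4 of those 5 were G1/S genes. A CHR word stood in 11 of the 34 (32.4%), against 17.4% of all promoters. These were 8 of the 21 G2/M genes (38.1%) and 3 of the 13 G1/S genes (23.1%). A match is a description of these letters and does not show binding.

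Levels differed widely between the members. Levels here are in TPM, reads per length of gene scaled to a common total, as mean ± SD over all 32 libraries. Pcna, the sliding clamp of the DNA polymerases, led with 115 ± 8.45 TPM. It was followed by Rrm1, the large subunit of ribonucleotide reductase, with 19.2 ± 2.29 TPM, Mcm7 with 18.5 ± 1.42 TPM, E2f1, a transcription factor of the G1/S transition, with 18.3 ± 3.17 TPM, and Mcm4 with 17.2 ± 1.87 TPM. Among these last 4, each lay within 1 SD of the next. The other helicase subunits were Mcm6 at 13.2 ± 2.44 TPM, Mcm3 at 11.4 ± 3.15 TPM, Mcm2 at 10.7 ± 1.56 TPM and Mcm5 at 7.74 ± 1.59 TPM. The origin loader Cdc6 and the helicase activator Cdc45 were lower, at 0.896 ± 0.265 TPM and 3.49 ± 0.849 TPM. Rrm2, the small reductase subunit, stood at 5.38 ± 1.502 TPM. Tyms, thymidylate synthase, stood at 4.55 ± 0.818 TPM, and Uhrf1, which guides DNA methylation to newly copied DNA, at 3.57 ± 1.14 TPM.

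The G2/M genes were scarcer, with a median of 3.12 TPM against 11.03 TPM for the G1/S genes. The centromere histone Cenpa, at 10.2 ± 2.69 TPM, and the anaphase activator Cdc20, at 7.90 ± 2.21 TPM, were the most abundant of them. Top2a, the topoisomerase that untangles sister chromosomes, stood at 6.28 ± 2.15 TPM, and Mki67, which coats mitotic chromosomes and is the usual proliferation marker, at 3.75 ± 1.08 TPM. The cyclins Ccnb2, Ccna2 and Ccnb1 and their kinase Cdk1 lay between 2.48 and 4.58 TPM. The kinases Bub1, Bub1b, Aurka, Aurkb and Plk1, which run the spindle checkpoint and chromosome segregation, and Melk, a kinase of dividing cells, lay between 1.61 and 3.93 TPM. The spindle proteins Prc1, Nusap1, Kif23, Tpx2, Kif11 and Kif20a lay between 1.62 and 5.42 TPM. Ube2c, the ubiquitin enzyme of the anaphase-promoting complex, stood at 5.59 ± 2.07 TPM. The survival factor Birc5, part of the chromosomal passenger complex, stood at 2.09 ± 0.777 TPM, and the mitotic transcription factor Foxm1 at 1.94 ± 0.640 TPM. The kinetochore proteins Cenpe and Cenpf and the checkpoint kinase Ttk lay under 1 TPM. Libraries of the same group varied more for G2/M genes, with a median coefficient of variation of 31.1%, than for G1/S genes, at 15.3%. Counting error alone gave medians of 11.6% and 5.72%.

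Some of these levels carry a limit of counting. For 10 members (Ccna2, Cdc20, Kif20a, Ube2c, Nusap1, Prc1, Mcm7, Cdc45, Foxm1 and Melk) another gene overlaps on the genome, on the opposite strand in all but Foxm1, and the sources used here do not give the use of strand in counting. Reads of these genes and their partners may be mixed, most of all where the partner is abundant, as Elovl1 is for Cdc20 with 254236 reads over all libraries against 3697. The pseudogene Ccnb2-ps was counted with 2026 reads beside 1849 for Ccnb2, so the level of Ccnb2 is uncertain.

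**Figure D1:**
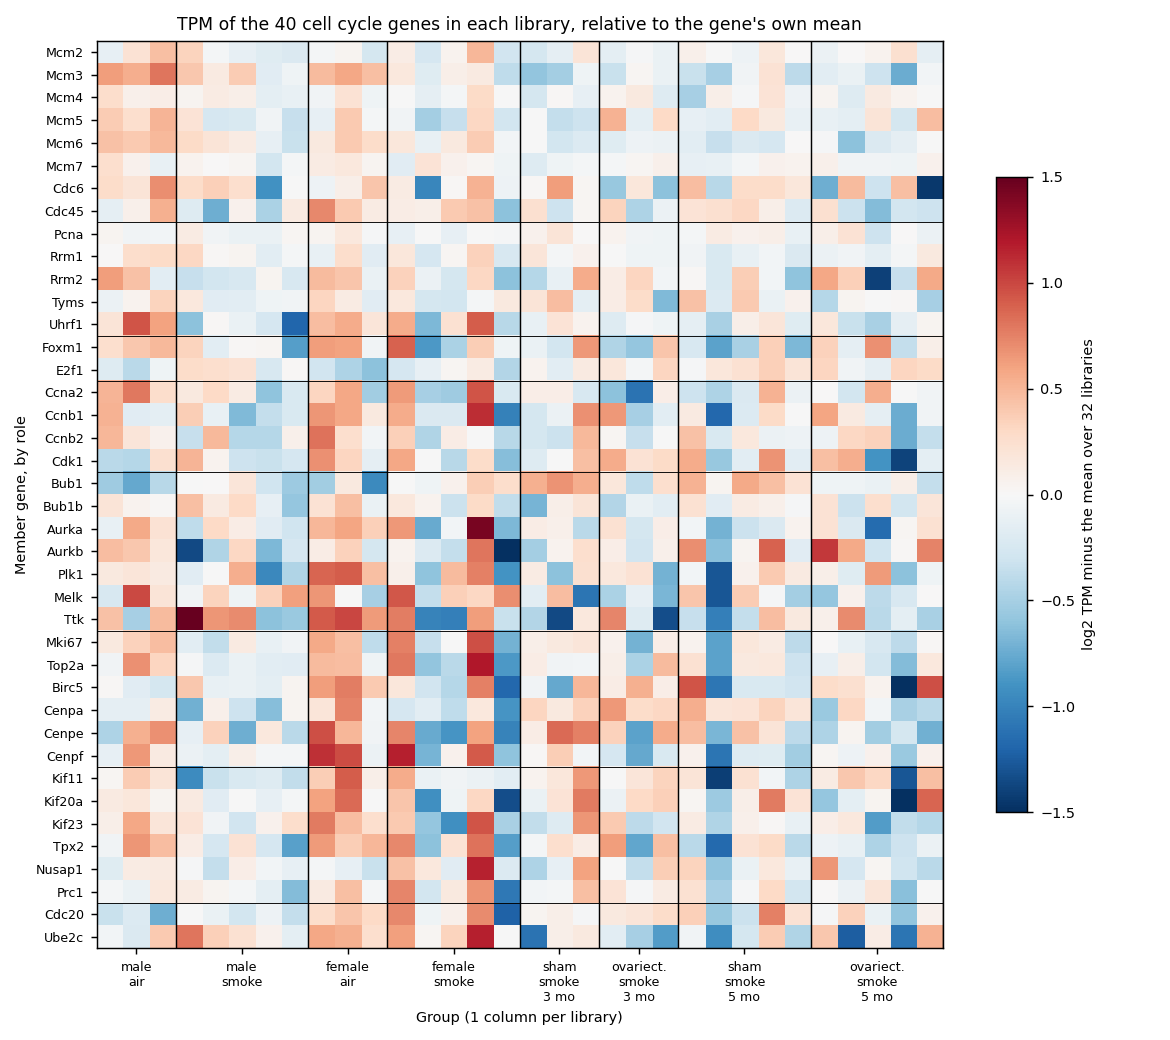
Each row is 1 of the 40 genes, ordered by role, and each column 1 of the 32 libraries. Colour gives log2 TPM minus the gene's mean over all libraries, from -1.5 (blue) to 1.5 (red). Mcm3 is red in all 6 air libraries, and libraries 1 and 4 of the female smoke group are red for most of the 26 G2/M genes.

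Group means gave a first view of how the genes followed the conditions. In TPM, 29 of the 40 members had their highest group mean in 1 of the 2 air groups, and 6 had their lowest there. The same count over all genes was not made, so these counts have no background. Both air groups had 3 libraries and stood in experiment 1 alone. The ratio of the highest to the lowest group mean was 2.05 for Mcm3, 1.97 for Uhrf1, 1.55 for Mcm6 and 1.56 for E2f1, and 1.104 for Pcna. These means span both experiments, and experiment, surgery and time cannot be told apart between them.

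The helicase subunit Mcm3 fell in smoke in both sexes. Its gene lies at chr1:20802968-20820312, that of Mcm6 at chr1:128331590-128359664 and that of Uhrf1 at chr17:56303321-56323486 (GRCm38). In females, Mcm3 was at 15.3, 16.5 and 15.01 TPM in the air libraries and at 12.3, 9.74, 11.7, 12.1 and 8.45 TPM in the smoke libraries. All 5 smoke libraries lay below all 3 air libraries. The log2 fold change was -0.57 (SE 0.12), a level 1.49-fold lower, with adjusted p = 0.00546 by edgeR's quasi-likelihood test with Benjamini-Hochberg adjustment over all 16361 genes tested. It was the 1 call among the 40 members in females (2.50%), where 7.7% of all genes tested were called, 4.52% higher and 3.18% lower. On the scale of normalised CPM, 3 members did not overlap between the groups and were lower in smoke (Mcm3, Pcna and Ttk), beside 6.47% of all genes, and 0 were higher, beside 8.03%. In TPM, Pcna and Ttk did overlap.

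In males, Mcm3 was at 17.0, 16.0 and 19.2 TPM in air and at 14.5, 12.1, 14.4, 9.79 and 10.5 TPM in smoke. Again no smoke library reached an air library. The log2 fold change was -0.48 (SE 0.12), 1.39-fold lower, with adjusted p = 0.0136 by edgeR. The call ended when male air library 3 was left out (adjusted p = 0.0566).

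Mcm6 and Uhrf1 fell with smoke in males as well. Mcm6 was at 17.6, 17.1 and 18.1 TPM in male air libraries and at 15.8, 14.8, 14.1, 11.9 and 10.3 TPM in male smoke libraries, which did not overlap. Its log2 fold change was -0.37 (SE 0.11), 1.29-fold lower, with adjusted p = 0.0344. Uhrf1 was at 3.88, 6.55 and 5.19 TPM in air and at 2.22, 3.45, 3.18, 2.85 and 1.497 TPM in smoke, again without overlap. Its log2 fold change was -0.94 (SE 0.29), 1.92-fold lower, with adjusted p = 0.0447. Both calls depended on single libraries. Mcm6 was no longer called on removing any 1 of the 3 male air libraries, or of the male smoke libraries 3 and 5 (adjusted p up to 0.0775). Uhrf1 was no longer called on removing any 1 of the male air libraries 2 and 3, the male smoke libraries 1, 3 and 5, the first female air library and female smoke library 3 (adjusted p up to 0.195). limma ended both calls, with adjusted p = 0.0874 for Mcm6 and 0.0821 for Uhrf1.

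These 3 genes were the calls among the 40 members in males (7.50%), where 10.3% of all genes tested were called, 4.93% higher and 5.33% lower. By normalised CPM, 8 members did not overlap and were lower in smoke, beside 8.2% of all genes. They were Mcm3, Mcm5, Mcm6, Uhrf1, Kif11, Top2a, Foxm1 and Mki67. E2f1 and Bub1 did not overlap and were higher, beside 8.62% of all genes. In TPM, Top2a, Foxm1, E2f1 and Bub1 did overlap. In females, Mcm6 was at 14.3, 17.0 and 15.7 TPM in air and at 14.5, 12.02, 14.4, 16.9 and 12.6 TPM in smoke, with a log2 fold change of -0.20 (SE 0.11, adjusted p = 0.301). Uhrf1 in females was at 4.68, 5.02 and 3.85 TPM in air and at 5.01, 2.12, 3.97, 6.40 and 2.54 TPM in smoke, with a log2 fold change of -0.23 (SE 0.29, adjusted p = 0.713). For both genes the female groups overlapped.

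E2f1 and Bub1 were looked at after their values were seen, since their fold changes were positive in both sexes. E2f1 was at 15.8, 13.6 and 17.2 TPM in male air and 21.8, 21.5, 20.9, 15.2 and 18.2 TPM in male smoke libraries. It was at 14.7, 13.1 and 11.7 TPM in female air and 15.2, 16.6, 18.3, 19.6 and 13.3 TPM in female smoke libraries. The log2 fold changes, 0.36 in males (SE 0.12, adjusted p = 0.0697) and 0.28 in females (SE 0.12, adjusted p = 0.202), did not pass the threshold. Bub1 had log2 fold changes of 0.48 both in males (SE 0.21, adjusted p = 0.169) and in females (SE 0.21, adjusted p = 0.188), which did not pass either.

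**Figure D2:**
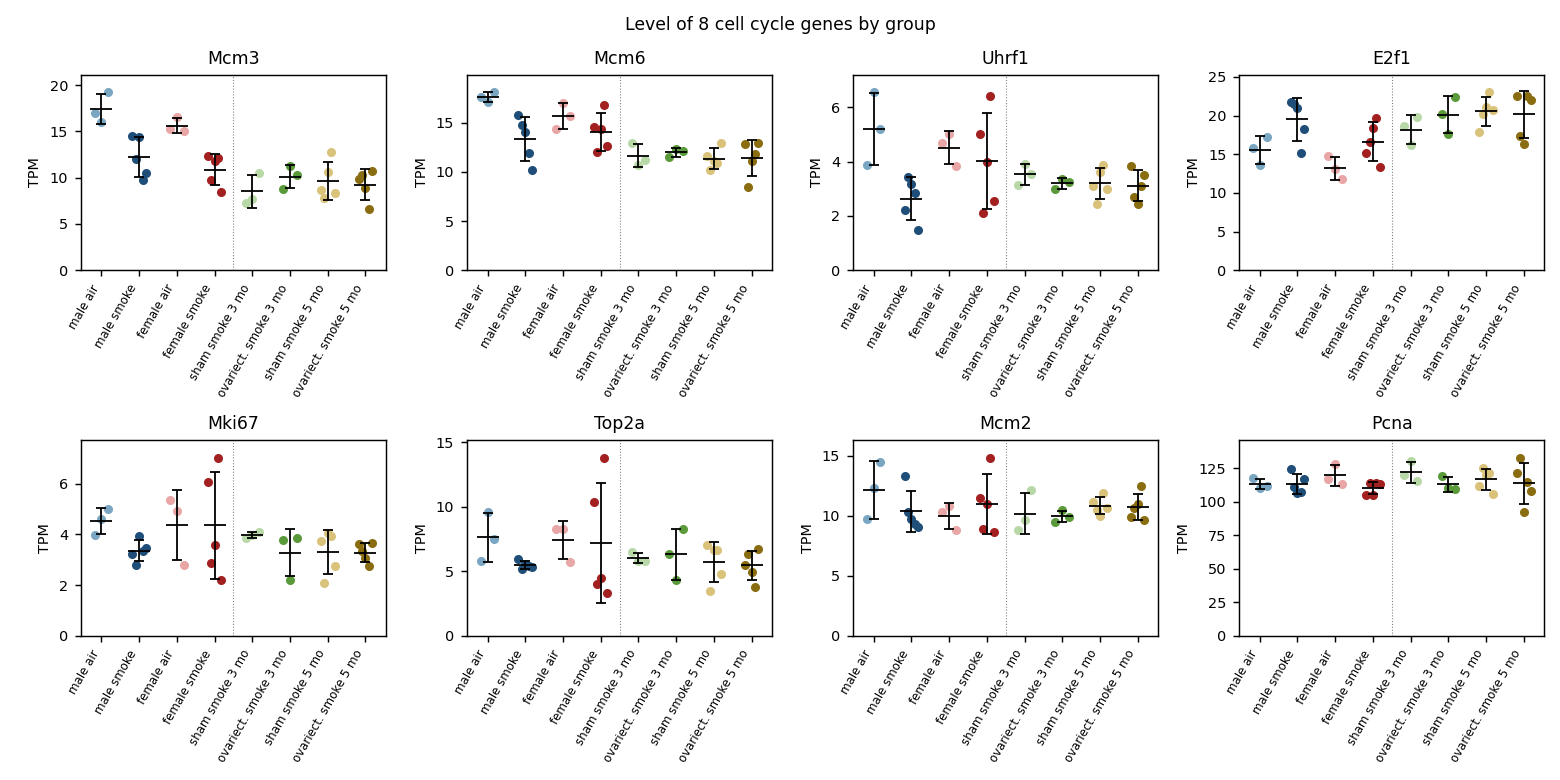
Points are single libraries, on a TPM axis that starts at 0, for 8 of the genes in the 8 groups; black bars are the group mean ± SD, and the dotted line parts experiment 1 (left) from experiment 2 (right). Mcm3 shows no overlap of smoke and air libraries in either sex, whereas Mki67 and Top2a in female smoke libraries spread from 2.21 to 7.04 and from 3.28 to 13.8 TPM.

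Of the 4 reference genes given whatever their result, none was called for smoke. Mki67 was at 3.99, 4.60 and 4.99 TPM in male air and 3.24, 2.80, 3.96, 3.33 and 3.47 TPM in male smoke libraries. It was at 5.37, 4.94 and 2.77 TPM in female air and 6.09, 2.85, 3.59, 7.04 and 2.21 TPM in female smoke libraries. The male groups stood apart by little and the female groups overlapped, and the log2 fold changes were -0.39 (SE 0.31) in males and -0.06 (SE 0.31) in females, with adjusted p of 0.513 and 0.947. Top2a was at 5.78, 9.61 and 7.46 TPM in male air and 5.91, 5.19, 5.57, 5.36 and 5.29 TPM in male smoke libraries. In females it was at 8.28, 8.25 and 5.70 TPM in air and at 10.3, 3.96, 4.50, 13.8 and 3.28 TPM in smoke. Its log2 fold changes were -0.44 (SE 0.38) in males and -0.11 (SE 0.38) in females. Female smoke libraries 1 and 4 stood above all female air libraries for both genes, and library 5 below them. For Top2a, the female smoke libraries at 3.96 and 4.50 TPM lay below all female air libraries as well.

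Mcm2 was at 9.68, 12.3 and 14.4 TPM in male air, 13.3, 10.3, 9.72, 9.32 and 9.09 TPM in male smoke, 10.3, 10.8 and 8.77 TPM in female air and 11.4, 8.85, 10.99, 14.8 and 8.64 TPM in female smoke libraries. Air and smoke overlapped in both sexes, with log2 fold changes of -0.19 (SE 0.15) in males and 0.08 (SE 0.15) in females. Pcna was at 118, 110.4 and 112 TPM in male air, 125, 111, 107, 107 and 117 TPM in male smoke, 117, 128 and 114 TPM in female air and 105, 114, 105, 114 and 113 TPM in female smoke libraries. Its log2 fold changes were 0.03 (SE 0.08) in males and -0.16 (SE 0.08) in females. Mcm2 and Mcm3 are subunits of the same helicase ring, and their measured changes with smoke were 0.08 and -0.57 (log2) in females.

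The makeup of the helicase RNA was computed after this was seen. Mcm3 made up 17.4% to 18.3% of the summed TPM of Mcm2 to Mcm7 in female air libraries and 11.96% to 15.6% in female smoke libraries. In males it made up 17.5% to 19.6% in air and 14.2% to 17.6% in smoke. The female groups did not overlap and the male groups overlapped at their edges. The share of Mcm4 did not overlap in females either, at 19.85% to 21.06% in air and 21.15% to 24.10% in smoke. All shares are parts of the same sum, so a lower Mcm3 share raises the others. In experiment 2, where all mice breathed smoke, the group means of the Mcm3 share were 12.1% to 13.1%. With no air group there, smoke and experiment cannot be told apart in these means. The summed TPM of the 6 subunits averaged 95.5 ± 3.27 (SD, n = 3) in male air, 78.0 ± 8.58 (n = 5) in male smoke, 86.8 ± 6.99 (n = 3) in female air and 78.9 ± 8.68 (n = 5) in female smoke libraries.

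Over all 40 members, log2 fold changes with smoke leaned below 0. In females 35 of 40 were negative (87.5%), beside 52.1% of all genes, with a median of -0.23 against -0.01 for all genes. In males 31 of 40 were negative (77.5%), beside 48.7% of all genes, with a median of -0.23 against 0.01. The members' median was negative under every scaling, filter, test and left-out library tried, from -0.42 to -0.19 in females and from -0.28 to -0.16 in males. At an unadjusted p under 0.05 there were 9 members in females (22.5%, beside 21.3% of all genes) and 8 of 40 in males, beside 23.2% of all genes. In both sexes 28 of 40 members were lower in smoke (70.0%), beside 34.8% of all genes, and 2 were higher, beside 34.0%. Members vary together between libraries, as given below, so these signs are not independent.

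**Figure D3:**
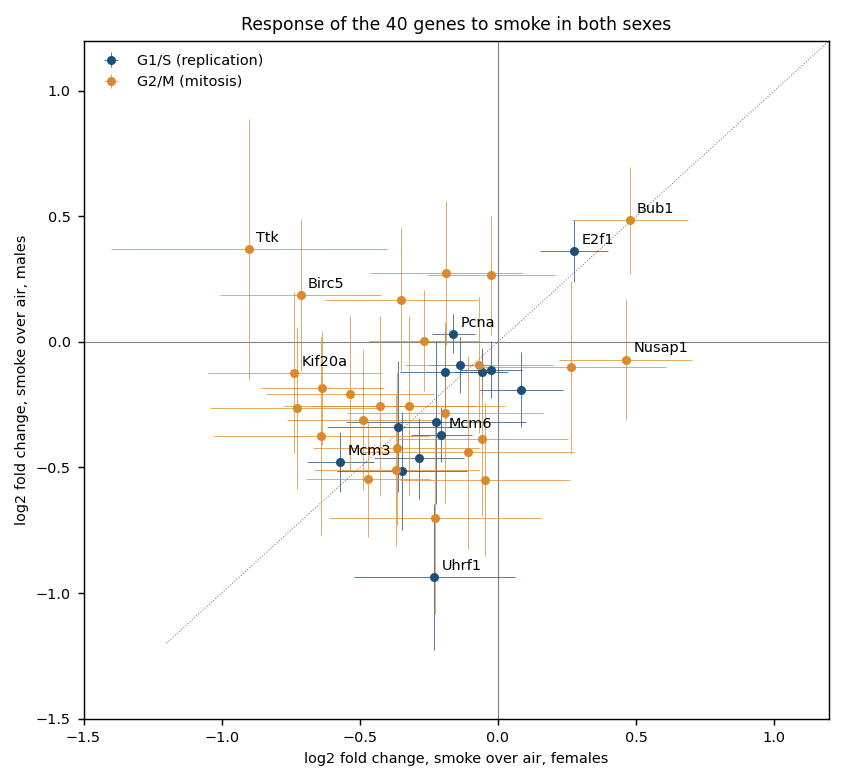
Each point is 1 of the 40 genes, with the log2 fold change of smoke over air in females (horizontal) and males (vertical) and bars of 1 SE; blue points are the 14 G1/S genes and orange the 26 G2/M genes. Most points lie at the lower left, where 28 genes were lower in both sexes, and Mcm3 is the gene called in both.

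No G2/M gene was called for smoke. By edgeR the count was 0 of 26 in each sex, with 6 genes at an unadjusted p under 0.05 in females and 2 in males, and DESeq2 and limma also called 0. In females the median G2/M log2 fold change was -0.34, with a median SE of 0.30. The lowest were Ttk at -0.90 (SE 0.50), the kinesin Kif20a at -0.74 (SE 0.31), the kinase Plk1 at -0.73 (SE 0.31), Birc5 at -0.71 (SE 0.29) and Cenpa at -0.64 (SE 0.22, adjusted p = 0.0861). In males the median was -0.23, with Aurkb, the passenger complex kinase, at -0.70 (SE 0.38) and Ccna2, the S and G2 cyclin, at -0.55 (SE 0.30). Leaving out female smoke library 4 added Birc5 to the calls in females.

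Between the female and male log2 fold changes, Pearson's r was 0.69 across the 14 G1/S genes, 0.12 across the 26 G2/M genes and 0.65 across all genes, as a description with no test of their difference. The G2/M genes varied more within groups (median coefficient of variation 31.1% against 15.3%), and such variation can by itself lower r. Genes are not independent replicates. The female and male contrasts share no libraries, but their spread was estimated together. The interaction of sex and smoke called 0 of 40 members by edgeR, where 1 gene of all tested was called (0.00611%). Birc5 alone had an unadjusted p under 0.05, with an interaction of -0.90 (SE 0.42, adjusted p = 0.854), and DESeq2 and limma called 0. The median SE of the members' interaction was 0.40, so sex differences in response near that size were not detectable at this number of libraries.

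Other contents of the tissue moved with smoke in the same libraries. Summed over 8 markers, endothelial RNA was at 2370 to 2903 CPM in female air and 1647 to 2233 CPM in female smoke libraries, and at 2712 to 3535 CPM in male air and 1699 to 2089 CPM in male smoke libraries. Summed over 8 markers, fibroblast RNA was at 3248 to 3392 CPM in female air and 1905 to 2445 CPM in female smoke, and at 3849 to 5542 CPM in male air and 2405 to 2516 CPM in male smoke. Erythroid RNA, over 9 markers, was at 2358 to 3275 CPM in female air and 6298 to 14814 CPM in female smoke, and overlapped in males. Markers of alveolar type 1 cells, the flat cells of gas exchange, were at 5809 to 7049 CPM in female air and 7459 to 9641 CPM in female smoke, and at 6626 to 7544 CPM in male air and 8507 to 10890 CPM in male smoke. Mitochondrial RNA, over 9 genes, was at 14675 to 17287 CPM in female air and 18932 to 24573 CPM in female smoke and overlapped in males, and plasma cell markers were at 568.4 to 600.1 CPM in male air and 663 to 735 CPM in male smoke and overlapped in females. Malat1 and Neat1 summed to 1813 to 2185 CPM in male air and 2195 to 3128 CPM in male smoke, which stood apart by little, and overlapped in females. The part of these in the change of the cell cycle genes was not tested. Of 8 markers of immature T cells, 4 (Rag1, Rag2, Dntt and Ptcra) had medians under 0.1 CPM, and the 8 summed to 25.7 to 36.8 CPM in experiment 1. Of 8 granulocyte precursor markers, 5 (Mpo, Elane, Ctsg, Ms4a3 and Fcnb) had medians under 0.1 CPM, and the 8 summed to 6.47 to 189 CPM in experiment 1, with overlap of air and smoke in both sexes. Among libraries of experiment 1, male air library 1 and female air library 2 stood out with 259 and 144 CPM of the albumin gene Alb. Without these libraries, chosen after seeing the data, Mcm3 was called in both sexes and Uhrf1 in males, and Mcm6 was not (adjusted p = 0.0892).

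Other genes of the cycle were read from 4 further lists. Their counts stand beside 7.7% of all genes called in females and 10.3% in males. Of 29 tested genes of DNA replication outside the members, 0 were called in females by edgeR (1 at an unadjusted p under 0.05), and 1 fell in males: Lig1, the ligase that joins Okazaki fragments, with a log2 fold change of -0.57 (SE 0.16, adjusted p = 0.0266). Of 42 further mitotic genes, 1 rose and 1 fell in females (4.76%) and 1 fell in males (2.38%), both below the share of all genes. Ncaph, a condensin subunit that compacts chromosomes, fell in both, from 7.05 to 7.33 TPM in female air to 2.97 to 4.70 TPM in female smoke, and from 6.25 to 8.10 TPM in male air to 2.91 to 5.24 TPM in male smoke. Neither pair of groups overlapped. The log2 fold changes of Ncaph were -0.94 in females (SE 0.18, adjusted p = 0.00272) and -0.76 in males (SE 0.18, adjusted p = 0.00971). Smc4, another condensin subunit, rose in females by 0.37 (SE 0.10, adjusted p = 0.0313).

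Of 20 regulators of G1, 1 rose and 2 fell in females, and 1 rose and 1 fell in males, which is 15% and 10% of the list beside 7.7% and 10.3% of all genes. Cdk4, the cyclin D kinase, fell in females from 90.7 to 97.9 TPM in air to 74.0 to 81.1 TPM in smoke, without overlap, with a log2 fold change of -0.35 (SE 0.09, adjusted p = 0.0223). Ccnd2, cyclin D2, rose by 0.34 (SE 0.10, adjusted p = 0.0422), and the repressor E2f7 fell, with a log2 fold change of -1.30 (SE 0.39, adjusted p = 0.0431). In males E2f2 rose by 0.35 (SE 0.09, adjusted p = 0.0203) and E2f3 fell, at -0.67 (SE 0.18, adjusted p = 0.0227).

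Of 19 CDK inhibitors and p53 target genes, 2 rose and 2 fell in females (21.1%, beside 7.7% of all genes), and 2 rose and 3 fell in males (26.3%, beside 10.3%). This and the other lists were chosen with earlier results of these data known, so their shares are descriptions only. Ccng1, a p53 target, rose from 64.0 to 75.3 TPM in female air to 93.5 to 116.9 TPM in female smoke, and from 63.9 to 79.0 TPM in male air to 89.4 to 113 TPM in male smoke. No smoke library was as low as any air library. The log2 fold change of Ccng1 was 0.55 in females (SE 0.08, adjusted p = 0.000221) and 0.54 in males (SE 0.08, adjusted p = 0.000151). Cdkn2b, the p15 inhibitor of Cdk4, rose from 42.2 to 43.9 TPM in male air to 59.0 to 84.6 TPM in male smoke (log2 fold change 0.72, SE 0.14, adjusted p = 0.00191), and rose in females by 0.55 (SE 0.14, adjusted p = 0.0164). Sesn1, a stress-induced p53 target, fell in females from 35.6 to 39.0 TPM in air to 24.1 to 29.6 TPM in smoke (log2 fold change -0.57, SE 0.08, adjusted p = 0.000237). Cdkn1c, the p57 inhibitor, fell in females (-0.65, SE 0.13, adjusted p = 0.00489) and males (-0.45, SE 0.13, adjusted p = 0.0334). In males Cdkn1a, the p21 inhibitor, fell (-0.55, SE 0.14, adjusted p = 0.0219), as did the antiproliferative Btg2 (-0.59, SE 0.16, adjusted p = 0.0309).

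Ccng1 in both sexes, Ncaph and Sesn1 in females and Cdkn2b in males were called whichever library was removed. Every other call of these lists ended on removing 1 library. In females this held for Cdkn1c with female air library 3 (adjusted p = 0.0593), Cdk4 with female air library 1 or 3 (up to 0.169) and Cdkn2b with female air library 1 or 2 (up to 0.0991). Smc4 ended with female air library 2 or 3 and female smoke library 2 or 4 (up to 0.212), and Ccnd2 with any female air library, male smoke library 2 and the female smoke libraries 2, 3 and 4 (up to 0.155). E2f7 ended with female air library 2 or 3, the male smoke libraries 4 and 5 and the female smoke libraries 2, 3, 4 and 5 (up to 0.278). In males, removing air library 3 ended the calls of Ncaph (0.0514) and Cdkn1a (0.163). E2f2 ended with air libraries 1 and 3 and smoke library 3 (up to 0.126), and Lig1 with air library 2 and smoke libraries 2 and 5 (up to 0.122). E2f3 ended with air libraries 2 and 3 and smoke libraries 1 and 3 (up to 0.167), and Btg2 with these and smoke library 2 (up to 0.172). Cdkn1c in males ended with air libraries 1 and 2 and smoke libraries 1, 2, 3 and 5 (up to 0.153).

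Between the sexes, 0 of 40 members were called in air by edgeR, with 2 at an unadjusted p under 0.05, and DESeq2 and limma also called 0. Chance alone passes about a 0.05 share of unchanged genes at that threshold, so such counts here and below are descriptions. Of all genes tested, 0.177% were called. Of the 26 G2/M genes, 21 had a positive female minus male log2 fold change in air, with a median of 0.27, beside 4 of 14 G1/S genes with a median of -0.11. G2/M genes vary together between libraries, as given below, so these signs are not independent. Their summed TPM was 117.8, 123.7 and 88.3 in female air and 88.5 to 98.8 in male air libraries. Over all genes, 8412 of 16361 were positive and the median was 0.01. The median of all 40 members, 0.14, ran from 0.01 to 0.22 over the alternatives and left-out libraries. Erythroid markers summed to 3902 to 11846 CPM in male and 2358 to 3275 CPM in female air libraries, and fibroblast markers to 3849 to 5542 CPM and 3248 to 3392 CPM. The nuclear RNAs Malat1 and Neat1 summed to 1813 to 2185 CPM in male and 2392 to 3359 CPM in female air libraries. The part of these in the sex differences was not tested. By normalised CPM, 7 members did not overlap and were higher in females (Cdc20, Birc5, Ttk, Plk1, Ube2c, Cenpa and Prc1), beside 8.92% of all genes, and 0 were lower, beside 7.73%. In TPM, Cenpa, Prc1 and Ube2c did overlap. Reads of Cdc20 may be mixed with those of Elovl1, as given above. Cdc20 was at 9.09, 10.2 and 9.34 TPM in female and 6.04, 6.58 and 4.59 TPM in male air libraries. Its log2 fold change was 0.77 (SE 0.32, adjusted p = 0.444), and that of Birc5 was 0.77 (SE 0.33, adjusted p = 0.471). With 3 libraries a group and a median SE of 0.34 for the G2/M genes, differences of this size were not detectable after adjustment.

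In smoke, 0 of 40 members were called between the sexes by edgeR, DESeq2 or limma, with 2 at an unadjusted p under 0.05, beside 0.189% of all genes called. These 2 were E2f1, with a female minus male log2 fold change of -0.26 (SE 0.11, adjusted p = 0.582), and Uhrf1, with 0.56 (SE 0.26, adjusted p = 0.639). A count of 2 can arise by chance at the unadjusted threshold. No member separated the 5 female from the 5 male smoke libraries, beside 1.6% of all genes. Of the further lists, Sesn1 was higher in female than male air libraries, at 35.6 to 39.0 against 25.6 to 29.1 TPM (log2 fold change 0.52, SE 0.09, adjusted p = 0.0163). Removing any female air library, or the male air library 2 or 3, ended that call (up to 0.143).

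Ovariectomy, which removes the main source of ovarian estrogen, was followed by no called change in the 40 genes. At 3 months of smoke, edgeR called 0 of 40 members and 0 of 16874 genes tested (0.0%), with 2 members at an unadjusted p under 0.05, and DESeq2 and limma called no member. Those 2 were Mcm5, with an ovariectomy minus sham log2 fold change of 0.51 (SE 0.20, adjusted p = 0.437), and Bub1, with -0.50 (SE 0.21, adjusted p = 0.481). By normalised CPM, Cdc20, Cenpa and Mcm7 did not overlap and were higher after ovariectomy, beside 7.5% of all genes, and Cenpf and Bub1 were lower, beside 7.71%. In TPM, Cenpa did overlap. Reads of Cdc20 and Mcm7 may be mixed with those of genes that overlap them on the genome. At 5 months, 0 of 40 members were called by any of the 3 tools, beside 1.36% of all genes by edgeR, with 3 members at an unadjusted p under 0.05. These were Bub1 at -0.39 (SE 0.16), Cenpa at -0.43 (SE 0.18) and Rrm1 at 0.17 (SE 0.08), with adjusted p of 0.240, 0.240 and 0.291. Counts of this size, here and at 3 months, can arise by chance at the unadjusted threshold. All 40 members overlapped between the groups, where 3.86% of all genes did not. The members' median log2 fold change was 0.00 at 3 months and 0.06 at 5 months. Malat1 and Neat1 summed to 4522 to 6887 CPM in sham and 2397 to 3759 CPM in ovariectomized libraries at 5 months. They overlapped at 3 months, where alveolar macrophage markers summed to 653 to 1203 CPM in sham and 599 to 612 CPM after ovariectomy. Germinal centre B cell markers summed to 149.8 to 168.5 CPM and 145.0 to 146.8 CPM there, and both marker sets overlapped at 5 months. The part of these in the ovariectomy comparisons was not tested.

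Bub1, which had an unadjusted p under 0.05 at both times, was at 5.50, 6.03 and 5.53 TPM in sham and 4.28, 2.92 and 4.50 TPM in ovariectomized libraries at 3 months. At 5 months it was at 5.43, 3.90, 5.63, 5.17 and 4.41 TPM in sham and 3.63, 3.61, 3.54, 4.02 and 2.95 TPM after ovariectomy. At 3 months the groups stood apart, and at 5 months 1 ovariectomized library reached above the lowest sham library. It was singled out after its values were seen.

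The members called for smoke in experiment 1 had the following levels in experiment 2, where all mice were female. Mcm3 had been called in both sexes, and Mcm6 and Uhrf1 in males alone. Mcm3 was at 7.31, 7.72 and 10.5 TPM in sham and 8.75, 11.3 and 10.3 TPM in ovariectomized libraries at 3 months. At 5 months it was at 8.70, 7.80, 10.6, 12.8 and 8.37 TPM in sham and 9.89, 10.3, 8.85, 6.58 and 10.7 TPM in ovariectomized libraries. All 16 libraries lay below the lowest air library of experiment 1. Experiment 2 had no air group, so smoke and experiment cannot be told apart in this. The sham and ovariectomized groups overlapped at both times, with log2 fold changes of 0.30 (SE 0.20) and 0.01 (SE 0.15). Mcm6 was at 13.0, 10.8 and 11.2 TPM in sham and 11.5, 12.3 and 12.2 TPM in ovariectomized libraries at 3 months, and at 11.6, 10.2, 11.1, 10.9 and 13.0 TPM and 12.8, 8.44, 11.1, 11.8 and 12.9 TPM at 5 months. Uhrf1 was at 3.14, 3.92 and 3.53 TPM in sham and 2.97, 3.37 and 3.26 TPM in ovariectomized libraries at 3 months, and at 3.10, 2.42, 3.61, 3.87 and 2.99 TPM and 3.83, 2.69, 2.42, 3.10 and 3.505 TPM at 5 months. Both genes overlapped between sham and ovariectomy at both times.

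The reference genes overlapped too. Mki67 was at 3.85, 3.99 and 4.10 TPM in sham and 3.77, 2.21 and 3.87 TPM in ovariectomized libraries at 3 months, and at 3.75, 2.08, 4.05, 3.92 and 2.74 TPM and 3.62, 3.34, 3.07, 2.74 and 3.64 TPM at 5 months. Top2a was at 6.47, 5.75 and 5.81 TPM in sham and 6.33, 4.29 and 8.27 TPM in ovariectomized libraries at 3 months, and at 7.002, 3.42, 6.62, 6.65 and 4.81 TPM and 5.49, 6.33, 4.93, 3.80 and 6.67 TPM at 5 months. Their ovariectomy minus sham log2 fold changes at 5 months were 0.07 (SE 0.16) and 0.01 (SE 0.19). Mcm2 was at 8.79, 9.65 and 12.1 TPM in sham and 9.49, 10.4 and 9.86 TPM in ovariectomized libraries at 3 months, and at 11.1, 10.5, 9.99, 11.9 and 10.6 TPM and 9.91, 10.6, 10.96, 12.5 and 9.64 TPM at 5 months. Pcna was at 120.0, 131 and 115 TPM in sham and 119, 110.1 and 109.7 TPM in ovariectomized libraries at 3 months, and at 112, 125, 119.9, 121 and 106 TPM and 122, 133, 92.1, 115 and 108 TPM at 5 months. Of the 4 further lists, 1 gene was called for ovariectomy: Cdkn1a fell at 5 months, from 92.9 to 114.5 TPM in sham to 76.2 to 85.7 TPM, with a log2 fold change of -0.29 (SE 0.07, adjusted p = 0.0412). The call was lost on removing any 1 of sham libraries 1, 2, 3 or 5 or ovariectomized libraries 1, 2, 3 or 4 of 5 months, sham library 2 or ovariectomized library 3 of 3 months, or the 5 libraries of experiment 2 over 100 CPM of Alb (adjusted p = 0.207).

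Time of exposure called no member either. Between 5 and 3 months of smoke, averaged over sham and ovariectomy, edgeR, DESeq2 and limma each called 0 of 40 and 0 had an unadjusted p under 0.05, beside 0.13% of all genes called by edgeR. The count was also 0 in sham alone (0.00593% of all genes called; 0 members at an unadjusted p under 0.05) and in ovariectomized mice alone (0.0178%; 1 member at an unadjusted p under 0.05), again by all 3 tools. That member was Cenpa, whose log2 fold change from 3 to 5 months was -0.57 (SE 0.20, adjusted p = 0.352) after ovariectomy. The interaction of surgery and time called 0 members and 0.0% of all genes by edgeR, with 1 member, Cenpa, at an unadjusted p under 0.05, and 0 by DESeq2 and limma. The median SE of the members was 0.20 for the mean change over time and 0.39 for the interaction.

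**Figure D4:**
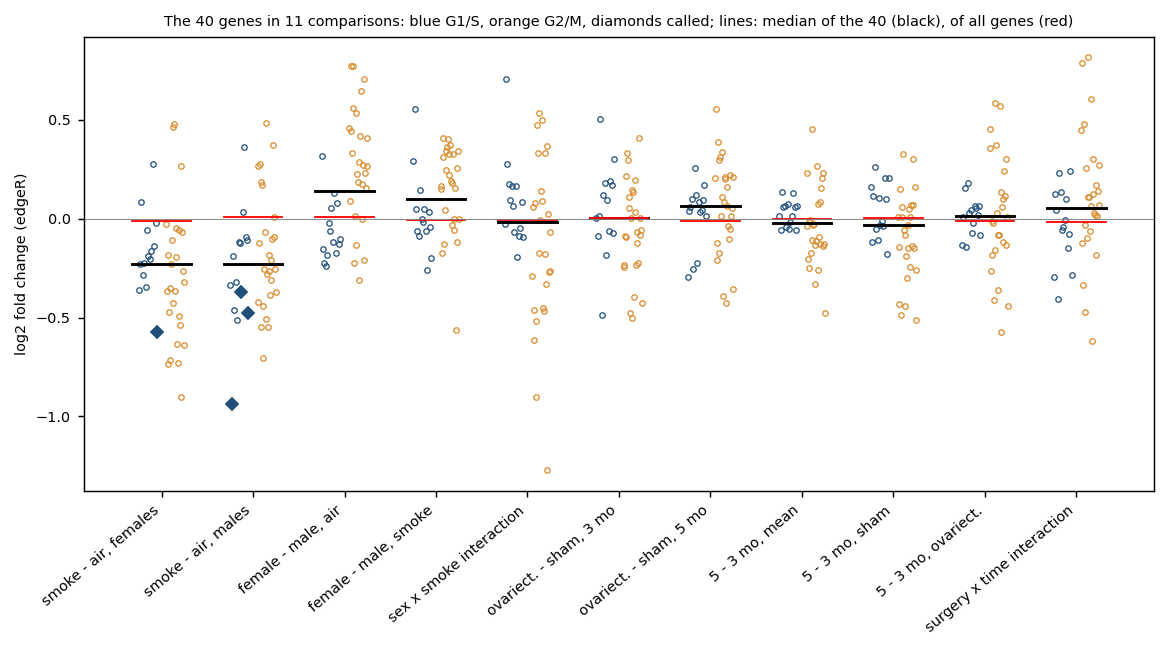
For each of 11 comparisons the points give the log2 fold change of the 14 G1/S genes (blue) and the 26 G2/M genes (orange), filled diamonds are genes called at an adjusted p under 0.05, and lines give the median of the 40 genes (black) and of all genes tested (red). Diamonds stand in the 2 smoke comparisons only, where the medians of the 40 genes are -0.23 in both sexes.

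Much of the variation of the G2/M genes lay between libraries of the same group. Over deviations from group means in log2 CPM in 32 libraries, 314 of 325 pairs of G2/M genes had a positive Pearson's r, with a median of 0.44. The median r was 0.12 for pairs of G1/S genes, 0.19 between both kinds and 0.00 over pairs of all genes tested in both experiments. Pairs share libraries and depth, and the values are a description. Mki67 and Top2a had r = 0.91, Mki67 and Cenpf 0.90, and Top2a and Cenpf 0.88. Pcna had a median r of -0.13 with the G2/M genes, Mcm7 -0.08, Tyms -0.02 and Mcm4 0.00, whereas Mcm3 reached 0.44 and Uhrf1 0.43.

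In female smoke libraries the summed TPM of the G2/M genes was 122, 72.1, 80.9, 144.9 and 58.4, so that library 4 stood 2.48-fold above library 5. Library 4 held the highest level within the group for 15 of the 26 genes and library 1 for the other 11, and library 5 held the lowest for 17. The G1/S sum, in which Pcna is the largest part, differed 1.204-fold between libraries 4 and 5. In the other groups the G2/M sum ran from 88.5 to 98.8 TPM in male air, 88.3 to 123.7 in female air and 74.3 to 88.9 in male smoke. In experiment 2 it ran from 83.9 to 106.6 TPM in sham and 78.4 to 98.8 after ovariectomy at 3 months, and from 60.9 to 108.6 in sham and 61.7 to 93.4 after ovariectomy at 5 months. Sham library 2 of 5 months was above its group mean for 0 of the 26 genes. Beside the female smoke libraries 1 and 4, T and NK cell markers summed to 56.4 and 54.0 CPM against 42.2 to 59.7 in the other 3, erythroid markers to 8763 and 14814 CPM against 6298 to 12694, and granulocyte precursor markers to 189 and 115.9 CPM against 46.3 to 143. Library 4 was the shallowest of all, with 13790052 reads, and library 1 had 18054918. The part of these in the spread of the G2/M genes was not tested.

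**Figure D5:**
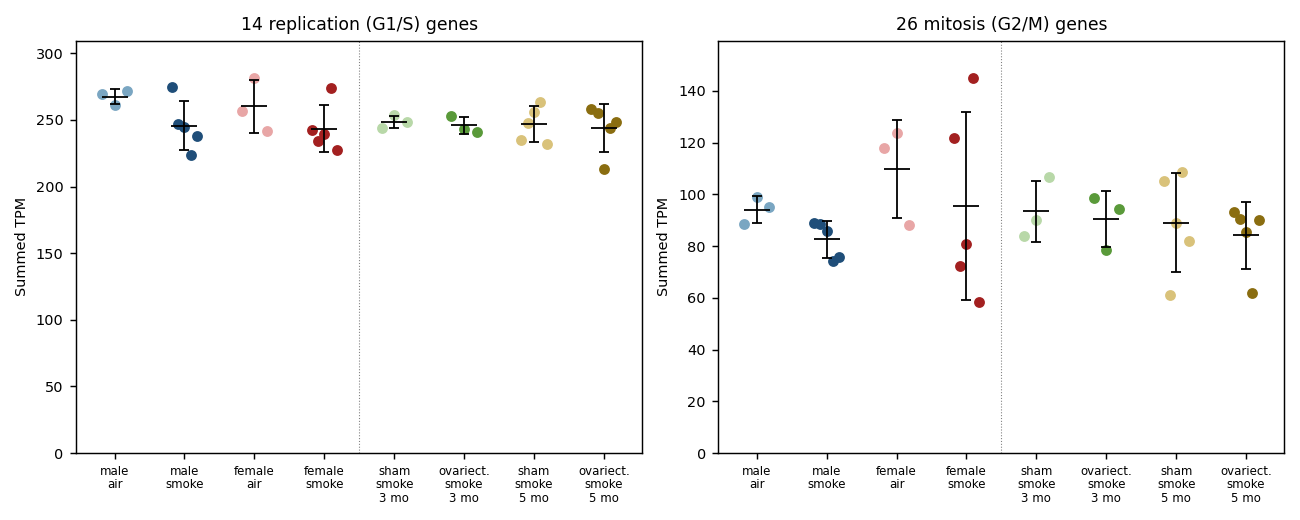
Points give the summed TPM of the 14 G1/S genes (left) and the 26 G2/M genes (right) in each library, on axes that start at 0; black bars are the group mean ± SD and the dotted line parts the 2 experiments. The G2/M sum spreads from 58.4 to 144.9 TPM among the 5 female smoke libraries, wider than in any other group.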

How the data were processed

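Per the labels' protocols, total lung RNA was isolated with Trizol and poly(A) libraries were made with the NEBNext Ultra 2 kit. The submitters' processing notes name FastQC and the builds GRCm38 and mm10; the sources used here do not give the aligner, the counter or the use of strand. The deposited tables hold raw read counts for 35275 genes and TPM values for 35186. The TPM unit was settled from the values: all equal the deposited count over gene length, scaled to a common total (relative tolerance 1e-06).

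Counts of each experiment were fitted alone, with 1 mean per group, by edgeR 4.0.16 (filterByExpr, TMM, robust quasi-likelihood F test, R 4.3.3), with Benjamini-Hochberg adjustment over all genes tested, 16361 in experiment 1 and 16874 in experiment 2. All 40 members passed the filter in both. Calls are at an adjusted p under 0.05. Fold changes are from this fit, levels are TPM, and groups were called not overlapping on TMM-scaled CPM. The scripts were tested on simulated counts. Alternatives used RLE scaling, no filter, a strict filter, a replicate block, 1 joint fit of the 32 libraries, fits of the compared groups alone, DESeq2 1.42.0, limma 3.58.1 on log2(TPM + 1), each library left out, and, added after seeing the data, no libraries over 100 CPM of albumin RNA. No 2 libraries of a group were near-copies: over 52 pairs, the lowest chi-square per degree of freedom was 8.77.

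Members and gene lists were chosen with earlier results of these data known. Given library by library are the called members (6 at most per comparison) and Mki67, Top2a, Mcm2 and Pcna; of the other lists, counts and up to 4 called genes per comparison. Promoters are from RefSeq (GRCm38.p6).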

Additional observations from a re-analysis of the deposited data

Results flagged for a closer look

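Among groups of 5 libraries, 8 named genes and the summed G1/S and G2/M levels were checked in 4 groups each, 40 checks in all, for a library far from the rest. Chance gives such a library in about 1 in 20 groups. Mcm2 in male smoke library 1 was at 13.3 TPM, with the next library at 10.3 TPM and the lowest at 9.09 TPM, so 0.711 of the group's range lay in that gap. The summed TPM of the 26 G2/M genes in ovariectomized library 4 of 5 months was 61.7, with the next library at 85.5 and the highest at 93.4, so 0.751 of the range lay in that gap.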

How the results depend on the processing

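The count of members called was the same, or within 1.5 times, for all 11 comparisons under every alternative, with these exceptions for smoke against air. In males it was 3, and 1 (Mcm3) with limma on log2(TPM + 1). Leaving out 1 library gave 0 to 4 members in males, with 0 on removing male air library 3, and 1 on removing any 1 of air library 2 and smoke libraries 3 and 5 of males. The count of 4 added E2f1 (removing male smoke library 4) or Mcm5 (removing female smoke library 4). In females it gave 1 to 2 members, the second being Birc5 without female smoke library 4. Over all genes, the counts were 490 to 1380 in females and 962 to 1809 in males with 1 library left out, against 1259 and 1678, and limma gave 789 and 992. In the other 9 comparisons no left-out library and no alternative called a member. Mcm6 in males also lost its call with the replicate block (adjusted p = 0.0680), with only the groups compared (0.0569) and with limma (0.0874), and Uhrf1 with limma (0.0821); the cause was not tested. With limma, Ccnd2, E2f7 and Smc4 in females, E2f2, E2f3, Cdkn1a and Lig1 in males and Sesn1 between the sexes were not called either. The joint fit of all libraries ended the calls of Btg2 and Cdkn1c in males and of Cdkn1a after ovariectomy (adjusted p up to 0.148). Fits of the compared groups alone ended E2f7 in females, E2f3 and Cdkn1a in males and Sesn1 between the sexes (up to 0.0741), and no filter ended E2f7 and Btg2 (up to 0.0661). Removing the libraries over 100 CPM of Alb ended Ccnd2, E2f7, Smc4 and Cdkn2b in females, E2f2 and Cdkn1c in males, Sesn1 between the sexes and Cdkn1a after ovariectomy (up to 0.207). No called change reversed its direction under any alternative tried.

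Same-numbered libraries did not deviate together: over 28 pairs in 8 comparisons their correlation ran from -0.33 to 0.24, and in 0 comparisons was every pair over 0.1. The replicate number was therefore not taken as a pairing, though these correlations cannot exclude one. With it as a block, 1 member was called in females and 3 in males (Mcm3, Mcm5 and Uhrf1), and 0 in the other comparisons. Of the further lists, E2f7 (adjusted p = 0.0926) and Smc4 (0.0609) in females and Cdkn1a (0.0808) in males were not called with the block. The depth limits the rarest members, whose lowest count in a library was 5.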
